A study of Mus musculus with 16 samples.

Results

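Mouse bone-marrow-derived macrophages (BMDMs, macrophages grown from marrow cells in the growth factor M-CSF) that lack Grn were edited with Cas9 against Mitf, Tfe3 and Tfeb and compared with Grn knockout macrophages edited at the Rosa26 locus, a control site. The comparison took the 4 samples titled GrnKO with the Mitf, Tfe3 and Tfeb guides (called GrnKO TKO here) and the 4 samples titled GrnKO with the Rosa26 guide (GrnKO Rosa26), 8 of the 16 samples of the series. The other 8 were WT macrophages with the same edits, and their values are given only beside those of the GrnKO cells. Per the labels' protocols, all stocks were frozen BMDMs of 12-week-old male Grn-/- or Grn+/+ mice on a C57Bl/6J background, and every group, the controls included, carried the hTfRmu/hu knock-in of a human transferrin receptor. Thawed cells received Cas9 ribonucleoproteins by nucleofection and were kept in 50 ng/mL M-CSF, and RNA was taken 10 days after transfection. The edited cells were populations, not clones, and no selection of edited cells was described. The series gives 1 animal of each group in each of 4 batches, and TKO and Rosa26 samples were compared within batches. The batch term was shared by both genotypes, so the pair of a genotype and batch had no term of its own.

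The MiT/TFE proteins Mitf, Tfe3, Tfeb and Tfec are basic helix-loop-helix leucine zipper transcription factors that bind E-box sequences in the promoters of lysosomal and autophagy genes. When amino acids are plentiful, Rag GTPases at the lysosome recruit Tfe3 and Tfeb for phosphorylation by mTORC1, which keeps them in the cytosol, and the folliculin complex acts on RagC and RagD in this step. Grn encodes progranulin, a secreted protein that is cut into granulins in the lysosome and whose loss disturbs lysosomal function in macrophages and microglia.

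Expression was read as 3′ tags of polyadenylated RNA. The GrnKO Rosa26 libraries had count totals of 28431639 to 32969630 and the GrnKO TKO libraries of 18387630 to 28511950, and the TKO library was the shallower in every batch, at 0.647, 0.882, 0.676 and 0.712 of its Rosa26 partner in batches 1 to 4. Thinning all GrnKO libraries to the smallest total, chosen after these totals were seen, gave 4728 called genes against 5011 at full depth. The macrophage genes Csf1r, Adgre1 and Lyz2 were present in all 8 libraries, with Csf1r between 413 and 488 CPM (counts scaled to a common library total). Although the labels give male mice, Xist lay at 172 to 244 CPM in the GrnKO libraries of batches 1 to 3 and at 15.6 and 25.2 CPM in those of batch 4, where the Y-linked Ddx3y was at 97.3 and 122 CPM. WT libraries had Xist at 169 to 269 CPM in batches 1, 2 and 4, and at 2.93 and 3.95 CPM in batch 3. Ddx3y was at 108 and 112 CPM in WT batch 3 and at 34.2 and 31.7 CPM in WT batch 2. WT batch 2 and GrnKO batch 4 thus held both transcripts, and whether each of these libraries came from 1 animal was not tested. Within GrnKO, both edits of a batch had like values, so this marker difference was balanced in the comparison. The genotypes of a batch did not always match, and the part of this in their differences was not tested. On the first principal component of the 8 libraries, with 50.0% of the variance, the Rosa26 libraries scored 25.9 to 34.9 and the TKO libraries -42.2 to -19.8, with GrnKO TKO replicate 2 nearest to the Rosa26 libraries.

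Of the 3 edited genes, Tfe3 was lower in its transcripts, Mitf was slightly higher and Tfeb did not pass the test. Tfe3 stood at 218, 234, 262 and 230.0 CPM in the GrnKO Rosa26 libraries of batches 1 to 4 and at 166, 135, 205 and 159 CPM in their TKO partners. The groups did not overlap, and the change was -0.51 ± 0.17, adjusted p = 0.0351 (log2 fold change ± SE of edgeR's quasi-likelihood test, Benjamini-Hochberg adjusted p over all genes tested, as for every change below). Mitf, at 154, 152, 133 and 139 CPM in Rosa26 and 177, 162, 158 and 187 CPM in TKO, rose slightly (0.25 ± 0.09, adjusted p = 0.049), close to the threshold. Tfeb was at 67.9, 70.0, 73.4 and 67.8 CPM and 55.2, 49.5, 78.9 and 52.9 CPM, with batch 3 higher and the other batches lower in TKO, and did not pass the test (-0.25 ± 0.12, adjusted p = 0.133). Tfec, a family member without a guide, stood at 11.4, 11.9, 11.9 and 10.6 CPM in Rosa26 and 7.17, 5.94, 8.94 and 8.54 CPM in TKO and fell (-0.59 ± 0.15, adjusted p = 0.00643). Grn, which marks the genotype, was at 40.7 to 56.1 CPM in all 8 libraries and did not pass the test (-0.01 ± 0.11, adjusted p = 0.957), against 3244 ± 354 CPM (mean ± SD, n = 4) in WT Rosa26. The Tfe3 call was lost in 11 of 20 alternative settings and the Mitf call in 13 of 20. The 3′ tags read the end of a transcript and not the cut site, so these levels do not measure how many alleles were edited.

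Of 15385 genes tested in the GrnKO cells, 5011 were called at an adjusted p under 0.05, which is 32.6% of those tested. There were 2271 rises (14.8%) and 2740 falls (17.8%), and the median change over all genes was -0.0049. With limma on the log2 of the deposited CPM there were 1690 rises and 3225 falls. Large changes lay mostly on the side of the rises: 759 genes rose and 165 fell by more than 2-fold, and 603 of these rises were genes under 5 CPM in both groups. Among the 1093 genes at 200 CPM or more, 241 rose and 316 fell, but only 4 and 6 of them by more than 2-fold. Most called genes thus changed by less than 2-fold. In 2215 of the rises and 2705 of the falls the TKO library differed from its Rosa26 partner in 1 direction in all 4 batches. Without batch 4 the count of called genes was 2637, and without batch 1 it was 3292.

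The change was also read in batches that the fit had not used. Only called genes that also passed the filter on low counts over all 16 libraries were read, and that filter did use the batch left out. Of the genes called to rise in batches 2 to 4, 1461 of 1497 genes were higher in TKO in batch 1 too, and of those called to fall 1772 of 1781 genes were lower. When batch 2 was left out these counts were 1665 of 1743 genes for rises and 2190 of 2225 genes for falls. They were 2071 of 2197 genes and 2472 of 2542 genes for batch 3, and 1219 of 1227 genes and 1396 of 1405 genes for batch 4. The size of the change differed between batches. Genes called to rise without batch 2 had a median of 0.74 in the other batches and of 0.46 in batch 2, the batch of GrnKO TKO replicate 2, while for batch 4 these medians were 0.74 and 0.70. In the same batches the falls had medians of -0.36 in batch 2 and -0.57 in batch 4. Without GrnKO TKO replicate 2 the count of called genes was 5096. Batch 2 was also the batch in which the depth of the TKO and Rosa26 libraries was most alike, and the part of depth in this was not tested.

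**Figure D1:**
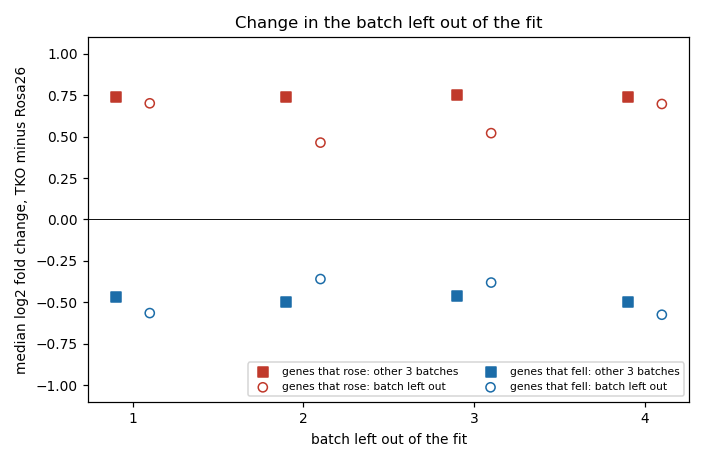
Median log2 fold change (TKO minus Rosa26, vertical axis) of the genes called to rise (red) or fall (blue) in a fit that left out the batch on the horizontal axis, in the other 3 batches (squares, fitted) and in the batch left out (circles, TKO minus Rosa26 log2 CPM of that pair). All 4 left-out batches lie on the side of zero of the other 3, and batches 2 and 3 lie closer to zero than batches 1 and 4. Only genes that passed the filter on low counts over all 16 libraries entered these medians.

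The largest falls at 5 CPM or more included those of Dio2, Mgll, Tspan7 and Cdkn1c. Dio2, the deiodinase that makes active thyroid hormone, was at 57.2, 70.0, 73.4 and 61.9 CPM in Rosa26 and at 1.38, 2.97, 2.89 and 2.03 CPM in TKO, a fall of 28.3-fold (-4.82 ± 0.15, adjusted p = 4.0e-14). The Dio2 mean in WT Rosa26 was 1.40 ± 0.370 CPM (SD, n = 4). Mgll, the monoacylglycerol lipase, fell by 3.99 on the log2 scale, and the tetraspanin Tspan7 by 3.91. Cdkn1c, the cyclin-dependent kinase inhibitor p57, was at 64.3, 42.6, 34.9 and 44.2 CPM and 5.30, 4.95, 4.47 and 3.29 CPM (-3.36 ± 0.22, adjusted p = 9.5e-08). Its highest TKO library was far below its lowest Rosa26 library. Fabp4, a cytosolic fatty acid carrier, was at 75.1, 100.4, 87.4 and 88.5 CPM in Rosa26 and 13.8, 22.8, 17.9 and 16.7 CPM in TKO (-2.32 ± 0.13, adjusted p = 1.2e-09), and Fabp5, of the same family, fell by 1.24 from 2046 CPM. Mfge8, the secreted bridge between apoptotic cells and phagocytes, was at 643, 730.1, 734 and 501 CPM and 127, 145, 205 and 134 CPM (-2.10 ± 0.12, adjusted p = 2.3e-09). The groups of all of these genes were apart in every library.

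Further falls included those of Cd28, Lat and Cpe. Cd28, a receptor that gives T cells their second activating signal, was at 89.4, 91.3, 97.8 and 85.5 CPM in Rosa26 and at 17.7, 26.7, 28.4 and 27.2 CPM in TKO (-1.88 ± 0.13, adjusted p = 8.8e-09), and Cd4 and the T cell adaptor Lat fell by 1.63 and 2.27. These are lymphocyte genes in textbooks, and the defining lymphocyte genes of the marker list are given further on. Cpe, a carboxypeptidase of prohormone processing, was at 257, 262, 266 and 268 CPM and 71.7, 92.3, 94.6 and 81.3 CPM (-1.64 ± 0.11, adjusted p = 9.3e-09). Adamts1, a secreted metalloprotease, fell by 2.43. Among the genes at 200 CPM or more, Scd2, a stearoyl-CoA desaturase, fell by 1.45, the vesicle membrane protein Syngr1 by 1.18 and the tubulin gene Tuba1b by 0.88. Gpnmb, a membrane glycoprotein of lysosomes and melanosomes and a known MiT/TFE target, was at 4647, 4563, 4543 and 4718 CPM in Rosa26 and 1931, 2209.8, 2418 and 2114 CPM in TKO (-1.09 ± 0.09, adjusted p = 1.2e-07). In WT it fell too (-0.81 ± 0.09, adjusted p = 3.1e-05), and the difference between the genotypes did not pass the test (-0.28 ± 0.13, adjusted p = 0.146).

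The largest rises at 5 CPM or more included those of F13a1, Ly6a, Ccl8 and Pamr1. F13a1, which encodes the catalytic chain of the clotting transglutaminase factor XIII and is a marker of monocytes and of some tissue macrophages, was at 0.214, 0.608, 0.315 and 0.354 CPM in Rosa26 and at 22.6, 22.4, 12.6 and 21.6 CPM in TKO (5.69 ± 0.29, adjusted p = 1.0e-08). All 4 Rosa26 libraries lay below 1 CPM, and all 4 TKO libraries were above 12 CPM. The chemokine gene Ccl8 was at 5.72, 9.73, 4.89 and 4.72 CPM and 38.1, 62.7, 43.6 and 44.7 CPM (2.96 ± 0.24, adjusted p = 2.8e-06). Pamr1, which encodes a secreted protein with a peptidase domain, was at 13.9, 12.5, 14.7 and 7.08 CPM and 99.3, 66.0, 84.1 and 61.0 CPM (2.70 ± 0.19, adjusted p = 5.7e-07). The TKO libraries of Pamr1 lay about the WT Rosa26 mean of 83.2 ± 41.1 CPM. Eln, the elastin gene, was at 3.93, 5.48, 4.54 and 4.13 CPM and 23.7, 25.4, 22.6 and 18.3 CPM (2.31 ± 0.13, adjusted p = 3.5e-10). Lifr, the receptor of leukemia inhibitory factor, was at 4.65, 5.78, 6.29 and 5.90 CPM and 29.2, 27.4, 28.9 and 29.3 CPM (2.34 ± 0.10, adjusted p = 9.7e-12). Ly6a rose by 3.96, the acute phase gene Saa3 by 2.65, the membrane proteins Tmem176a and Tmem176b by 2.71 and 2.42, and the dicarboxylate transporter Slc13a3 by 2.34. 3 further transcripts among the 15 largest rises have only clone names or identifiers.

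Among the genes at 200 CPM or more the largest rise was that of Ifi27l2a, an interferon-responsive gene, at 92.9, 88.2, 80.4 and 59.0 CPM in Rosa26 and 303, 317, 279 and 232 CPM in TKO (1.83 ± 0.08, adjusted p = 9.7e-12). Itgam, the integrin chain CD11b of complement receptor 3, was at 182, 222, 227 and 221 CPM and 607, 495, 457 and 529 CPM (1.27 ± 0.12, adjusted p = 1.0e-06). C1qa, a chain of the complement protein C1q, was at 311, 395, 325 and 324 CPM and 772, 792, 736 and 732 CPM (1.17 ± 0.07, adjusted p = 1.3e-09). Folr2, a folate receptor of resident macrophages, was at 261, 262, 318 and 245 CPM and 529.6, 495, 578 and 488 CPM (0.95 ± 0.07, adjusted p = 9.6e-09), and the scavenger receptor Stab1 rose by 0.83. Hif1a, the oxygen-regulated transcription factor subunit, rose by 0.74. None of these groups overlapped.

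**Figure D2:**
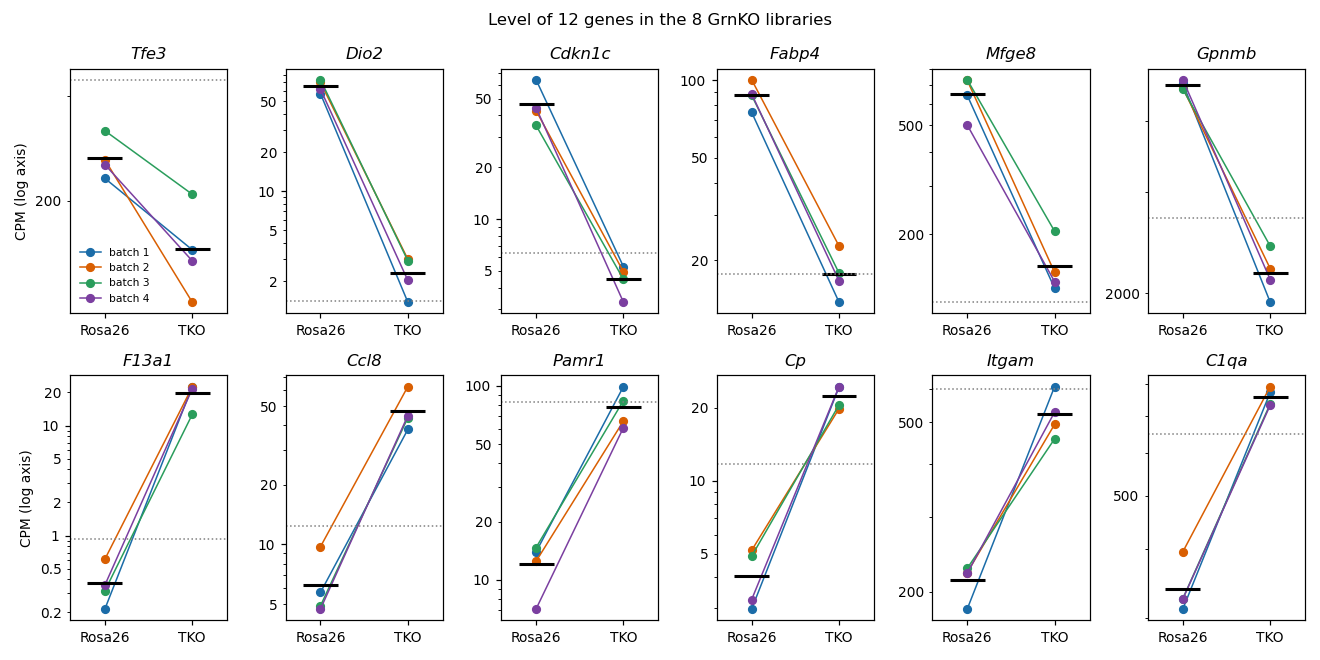
Level (CPM, log axes that differ between panels) of 12 genes in the GrnKO Rosa26 and GrnKO TKO libraries, with the libraries of a batch joined by a line. Black bars are group means and the dotted line is the WT Rosa26 mean, and for all 12 genes the TKO library lies on the same side of its Rosa26 partner in every batch.

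Each list of lysosomal enzymes had more falls than rises, beside 17.8% falls and 14.8% rises over all genes tested. Of 16 lysosomal proteases tested, 11 fell and 3 rose, with a median of -0.24. Ctsd, the aspartic protease cathepsin D, was at 7507, 6997, 7688 and 7077 CPM in Rosa26 and 6068, 4947, 6309 and 5286 CPM in TKO (-0.38 ± 0.07, adjusted p = 3.7e-04), and Ctss, a cysteine protease of antigen processing, fell by 0.42. The protease falls numbered 5 without batch 4 or at the floor of 5 CPM, 6 without batch 1, TKO 1 or Rosa26 4 or with no batch term and 7 without batch 2 or Rosa26 2 (TKO 1 is the GrnKO TKO library of batch 1, and so on). The cysteine protease genes Ctsc and Ctsh rose instead. Ctsc was at 20.7, 25.9, 29.4 and 29.5 CPM and 60.7, 49.5, 48.4 and 48.8 CPM (0.97 ± 0.14, adjusted p = 1.2e-04). Of 16 genes of glycosaminoglycan breakdown, 9 fell and 1 rose (median -0.30). Galns, a sulfatase, was at 64.3, 63.9, 69.9 and 67.8 CPM and 29.2, 36.3, 33.6 and 31.7 CPM (-1.02 ± 0.11, adjusted p = 2.2e-06). Hexa, the alpha chain of beta-hexosaminidase, was at 1430.0, 1429.8, 1503 and 1415 CPM and 828, 989, 999 and 895 CPM (-0.64 ± 0.07, adjusted p = 2.4e-06), and the N-acetylglucosaminidase gene Naglu fell by 0.76. Hgsnat, an acetyltransferase of heparan sulfate breakdown, was the gene of the list that rose, by 0.67.

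In lysosomal lipid breakdown 9 of 15 genes fell and 1 rose (median -0.28), beside 17.8% falls and 14.8% rises over all genes. Psap encodes prosaposin, the precursor of the saposins that present sphingolipids to their hydrolases and a partner of progranulin. It was at 11082, 10952, 11182 and 10616 CPM in Rosa26 and at 6068, 5937, 6835 and 6506 CPM in TKO (-0.79 ± 0.09, adjusted p = 8.8e-06), with no overlap. The galactosylceramidase gene Galc fell by 0.69, the acid lipase gene Lipa by 0.43 and the sterol carrier Npc2 by 0.39. The list for glycoproteins, glycogen and nucleic acids had 6 falls and 2 rises in 15 genes. Its falls numbered 1 without batch 1, 2 without batch 4 and 3 without Rosa26 1, Rosa26 2, Rosa26 4 or TKO 4 or with no batch term.

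Of 35 lysosomal membrane proteins, 19 fell and 1 rose, with a median of -0.25, beside 17.8% falls and 14.8% rises over all genes. Their falls numbered 11 without batch 4. In WT cells 4 of them rose, none fell and the median was 0.13. The change differed between the genotypes in 19 of the 35, each with a lower value in GrnKO. Over all genes 2.18% rose in WT and 13.4% differed between the genotypes. Lamp1, an abundant glycoprotein of the lysosomal membrane, was at 1752, 1764, 1747 and 1739.8 CPM in Rosa26 and 1269, 1385, 1314 and 1342 CPM in TKO (-0.40 ± 0.06, adjusted p = 1.6e-04). No TKO library reached its 4 Rosa26 libraries, whose closeness to each other lies within the rounding of the deposited counts. The nucleoside transporter Slc29a3 fell by 0.59, the cation channel Mcoln2 by 0.64, the cysteine transporter Mfsd12 by 0.62 and the amino acid transporter Slc36a1 by 0.59.

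Most subunit genes of the V-ATPase, the proton pump of the lysosome, fell. In the V1 sector, which hydrolyses ATP, 6 of 8 subunits fell, and in the membrane-embedded V0 sector with its accessory proteins 9 of 10. None rose in either sector, beside 17.8% falls and 14.8% rises over all genes. The V0 falls numbered 5 without batch 1 or Rosa26 2 or at the floor of 5 CPM. The medians were -0.29 and -0.32. Atp6v0c, the proton-carrying ring subunit, was at 1358, 1278, 1258 and 1268 CPM and 883, 891, 894 and 895 CPM (-0.54 ± 0.08, adjusted p = 7.7e-05). Atp6v0d2, the subunit isoform of osteoclasts and some macrophages, was at 114, 137, 126 and 121 CPM and 37.5, 69.3, 63.1 and 56.9 CPM (-1.15 ± 0.25, adjusted p = 0.00541). Of the V1 subunits Atp6v1b2 had the smallest p and fell by 0.58.

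To show what lies before the starts of genes that fell together, promoter sequences were read for the lysosomal, V-ATPase and MiT/TFE target genes with the smallest p among those that fell and held the E-box letters CACGTG in the 250 bases before the start. The sequences are RefSeq's, of the build GRCm38.p6, whereas the deposited counts are on GRCm39. They are printed 5′ to 3′ on the gene's strand, with CACGTG in capitals.
Mcoln2 (chr3:146149924-146150173, plus strand): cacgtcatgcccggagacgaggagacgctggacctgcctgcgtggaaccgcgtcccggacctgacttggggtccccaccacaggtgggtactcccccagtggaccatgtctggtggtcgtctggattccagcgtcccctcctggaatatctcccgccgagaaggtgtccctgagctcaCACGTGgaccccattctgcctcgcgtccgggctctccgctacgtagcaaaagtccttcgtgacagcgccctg
Slc36a1 (chr11:55204090-55204339, plus strand): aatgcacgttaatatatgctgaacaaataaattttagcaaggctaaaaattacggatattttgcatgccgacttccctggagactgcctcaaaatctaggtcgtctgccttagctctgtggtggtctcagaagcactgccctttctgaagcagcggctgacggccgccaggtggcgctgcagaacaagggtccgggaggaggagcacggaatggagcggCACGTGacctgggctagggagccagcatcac
Lamp1 (chr8:13158911-13159160, plus strand): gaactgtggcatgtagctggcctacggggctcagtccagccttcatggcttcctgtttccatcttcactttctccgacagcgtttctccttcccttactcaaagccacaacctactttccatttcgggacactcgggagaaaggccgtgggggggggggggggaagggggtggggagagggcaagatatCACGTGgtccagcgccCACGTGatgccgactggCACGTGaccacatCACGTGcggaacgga
Gla (chrX:134601006-134601255, minus strand): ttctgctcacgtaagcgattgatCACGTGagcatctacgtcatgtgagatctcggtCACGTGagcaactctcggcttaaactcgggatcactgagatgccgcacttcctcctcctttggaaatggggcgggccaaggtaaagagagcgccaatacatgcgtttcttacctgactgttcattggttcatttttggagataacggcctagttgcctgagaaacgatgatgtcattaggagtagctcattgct
Atp6v1a (chr16:44139260-44139509, minus strand): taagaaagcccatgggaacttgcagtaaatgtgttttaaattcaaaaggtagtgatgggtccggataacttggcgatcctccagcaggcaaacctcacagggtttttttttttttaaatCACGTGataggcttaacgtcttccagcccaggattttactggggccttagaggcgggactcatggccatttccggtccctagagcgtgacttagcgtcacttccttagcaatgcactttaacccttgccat
Ctsd (chr7:142387828-142388077, minus strand): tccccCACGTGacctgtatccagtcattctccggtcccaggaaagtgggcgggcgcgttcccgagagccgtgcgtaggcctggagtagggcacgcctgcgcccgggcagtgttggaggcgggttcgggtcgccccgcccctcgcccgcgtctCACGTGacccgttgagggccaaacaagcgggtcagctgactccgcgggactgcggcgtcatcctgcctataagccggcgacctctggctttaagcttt
CACGTG reads the same on both strands, and the longer E-box TCACGTGA contains it. In windows of 300 bases (250 before and 50 after the start), 2187 of 27025 genes held CACGTG (8.09%) and 1.12% held TCACGTGA. Among the tested genes with a window the share with CACGTG was 11.6%. Of the lysosomal proteases 6 of 14 held CACGTG and of the lysosomal membrane proteins 8 of 30. The MiT/TFE target list had 6 of 21, and 3 of 21 with TCACGTGA. Lysosomal lipid breakdown had 2 of 12, autophagy initiation 1 of 12, complex I 2 of 33 and the p53 targets, a list with both rises and falls, 7 of 17. Windows were matched for 10494 of the 15385 genes tested, and for 54.6% of the rises and 78.4% of the falls, so a comparison of all rises with all falls is void. A match of letters is a description of the window and not of binding.

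The textbook MiT/TFE targets had 13 falls and no rise among 25 genes (median -0.27), against 2 falls and 3 rises in WT (median 0.16). The GrnKO rises were 2 at the floor of 5 CPM, with DESeq2 or in the fit of the 8 GrnKO libraries. The shares over all genes were 17.8% falls and 14.8% rises in GrnKO, and 1.16% falls and 2.18% rises in WT. Well-known targets stood among the 12 that did not pass the test, and the following 4 were chosen after their values were seen. Rragd, the RagD gene, was at 67.9, 70.0, 59.4 and 64.9 CPM in Rosa26 and 71.7, 66.0, 57.8 and 73.2 CPM in TKO, with overlapping groups (0.03 ± 0.08, adjusted p = 0.786). In WT it rose from 30.3 ± 2.31 to 49.9 ± 1.31 CPM (0.71 ± 0.09, adjusted p = 9.0e-05), and the genotypes differed (-0.68 ± 0.12, adjusted p = 0.00184). The folliculin gene Flcn was at 34.7, 33.5, 31.1 and 29.5 CPM and 28.1, 29.7, 32.1 and 33.3 CPM (-0.06 ± 0.10, adjusted p = 0.686). The autophagy receptor Sqstm1 and the lysosomal calcium channel Mcoln1 had changes of 0.09 and 0.19, and neither passed the test. In the list of Rag GTPases and folliculin feedback 7 of 25 genes fell and 2 rose, and the falls were 4 without batch 4. Lamtor4, of the scaffold that holds the Rags, fell by 0.48 and Rraga by 0.34.

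Of the 15 genes of initiation 4 fell and 2 rose (median -0.01), and of the 21 of conjugation and cargo 7 fell and 1 rose (median -0.16), beside 17.8% falls and 14.8% rises over all genes. The falls of initiation numbered 2 without batch 1, batch 4, Rosa26 3 or TKO 4 or with no batch term. The kinase gene Ulk1 fell by 0.63 and its partner Atg101 by 0.51, whereas Atg9a, the membrane protein of autophagosome seeds, rose by 0.61. Gabarapl1, a conjugated protein of the autophagosome, was at 229, 243, 234 and 262 CPM in Rosa26 and 138, 168, 142 and 150.4 CPM in TKO (-0.70 ± 0.08, adjusted p = 2.9e-06). In WT it changed the other way, by 0.34 ± 0.08, adjusted p = 0.017, and its interaction was -1.03 ± 0.11, adjusted p = 1.5e-05. The cargo receptor Nbr1 rose by 0.45. Of 18 other E-box factors 6 fell and 3 rose, and the falls were 3 without batch 4 or with no batch term. Bhlhe40 fell by 0.79 and Bhlhe41 by 0.51, and Mxi1 and Arntl rose by 0.55 and 0.60.

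**Figure D3:**
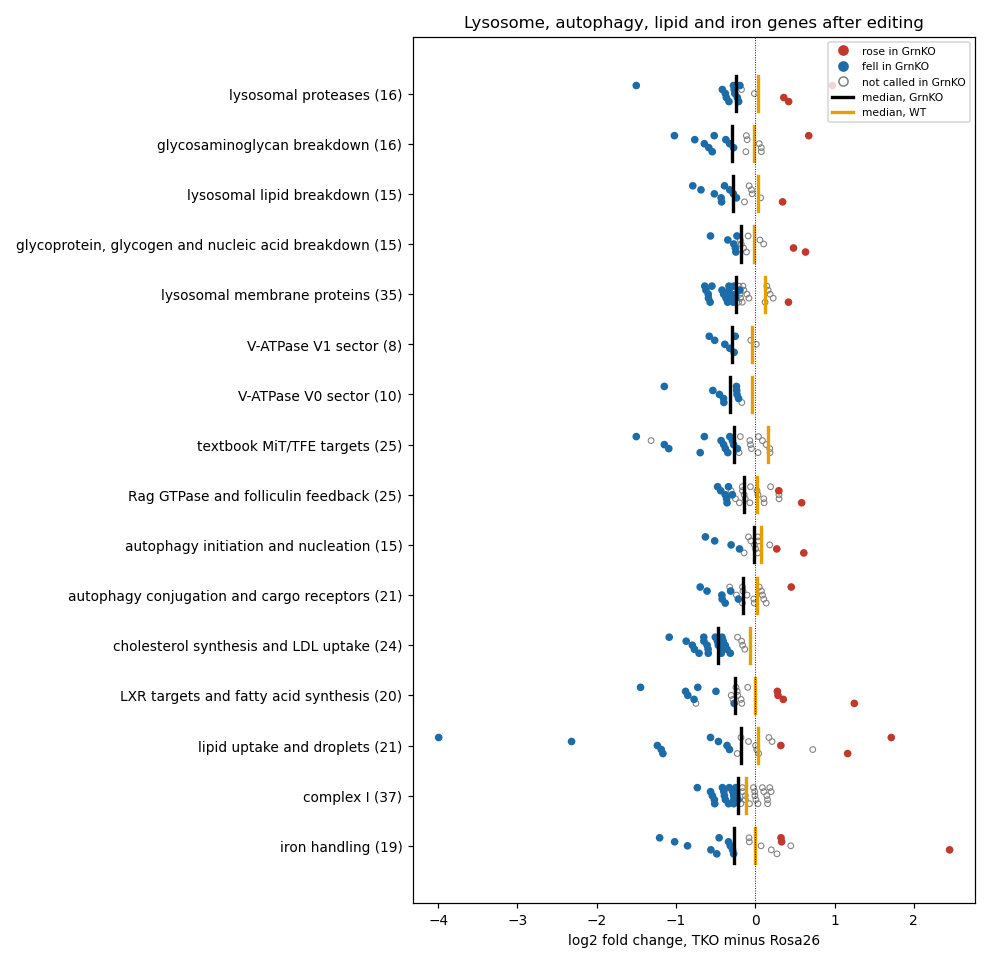
Log2 fold change (TKO minus Rosa26) in GrnKO of each tested gene of 16 lists, with the number tested in parentheses. Filled points passed the test, black bars are the medians in GrnKO and orange bars the medians of the same genes in WT. The median of cholesterol synthesis and uptake lies at -0.47 in GrnKO and -0.07 in WT.

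Genes of cholesterol synthesis and LDL uptake mostly fell, beside 17.8% falls and 14.8% rises over all genes. Of 24 genes 20 fell and none rose, with a median of -0.47 and medians between -0.56 and -0.44 in the 4 batches. None passed the test in WT, and 13 differed between the genotypes, beside 3.35% and 13.4% of all genes. Cyp51, the lanosterol demethylase, was at 218, 198, 196 and 209 CPM in Rosa26 and 132, 122, 110.4 and 109.8 CPM in TKO (-0.79 ± 0.08, adjusted p = 1.7e-06). Mvk, the mevalonate kinase, fell by 0.87 and Acat2 by 0.77. The other 4, Sqle, Idi1, Tm7sf2 and the regulator Srebf2, did not pass the test. In the list of LXR targets and fatty acid synthesis 7 of 20 fell and 4 rose. There the rises numbered 1 without batch 3, batch 4, TKO 3, Rosa26 4 or TKO 4 or with no filter and 2 without batch 1, Rosa26 1 or TKO 1, with limma or with no batch term. The falls numbered 11 with limma and 12 in the fit of the 8 GrnKO libraries. The desaturase Fads2 fell by 0.85, the acetyl-CoA carboxylase Acaca by 0.73 and the sterol exporter Abcg1 by 0.88, while the apolipoprotein gene Apoc2 rose by 1.25. Lipid uptake and droplet genes had 9 falls and 3 rises in 21. Besides Mgll and the carriers, the triglyceride-making enzyme Dgat1 fell by 0.56, and the scavenger receptor Olr1, near 1 CPM in Rosa26, rose by 1.72.

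The nuclear genes of the respiratory chain that were called in the main fit all fell. In the fit of the 8 GrnKO libraries 4 complex I genes and 1 ATP synthase gene rose, and at the floor of 5 CPM 2 complex I genes. In complex I 19 of 37 genes fell (median -0.22), in complexes II and III 6 of 13, in complex IV 4 of 10 and in ATP synthase 3 of 14, and none rose, beside 17.8% falls over all genes. The complex I falls numbered 9 without batch 4, 10 without TKO 4 and 12 without batch 1 or Rosa26 1. For complexes II and III the falls numbered 3 without batch 4, and for complex IV 0 without batch 4, 1 without batch 1 and 2 without Rosa26 1, TKO 1, Rosa26 4 or TKO 4, at the floor of 5 CPM or with no batch term. The medians were -0.23 for complexes II and III, -0.17 for complex IV and -0.09 for ATP synthase. Ndufb3, an accessory subunit of complex I, was at 239.5, 209.9, 213 and 230.0 CPM and 138, 142, 142 and 118 CPM (-0.73 ± 0.09, adjusted p = 6.9e-06). In WT the complex I genes had a median of -0.12 with 1 fall, and the genotypes differed for 2 of them. Over all genes 1.16% fell in WT and 13.4% differed between the genotypes. The tricarboxylic acid cycle had 3 falls in 15 genes, fatty acid oxidation 6 in 17 and the mitochondrially encoded genes 5 in 13, with no rise. In the fit of the 8 GrnKO libraries the rises of these lists were 2, 1 and 1. The cycle's falls numbered 1 without batch 1, batch 4 or TKO 4, 5 with limma and 6 in the fit of the 8 GrnKO libraries. The mitochondrially encoded ones numbered 1 without batch 2 or batch 4 and 2 without batch 1, Rosa26 2 or Rosa26 4. They numbered 3 without TKO 1 or TKO 3 or at the floor of 5 CPM. Glycolysis and hypoxia genes were mixed, at 5 rises and 6 falls in 24, and the rises were 3 without batch 4 or Rosa26 1 or with no batch term.

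Iron genes included 10 falls and 3 rises in 19, beside 17.8% falls and 14.8% rises over all genes. Slc40a1, the iron exporter ferroportin, was at 85.8, 94.3, 101 and 118 CPM in Rosa26 and 33.7, 46.2, 34.7 and 61.0 CPM in TKO (-1.21 ± 0.10, adjusted p = 1.5e-07). Cp, the ferroxidase ceruloplasmin that works with it, was at 2.97, 5.17, 4.89 and 3.24 CPM and 24.3, 19.8, 20.5 and 24.4 CPM (2.45 ± 0.17, adjusted p = 2.3e-08). Tfrc, the transferrin receptor, was at 197, 173, 189 and 186 CPM and 88.3, 82.5, 105 and 93.5 CPM (-1.02 ± 0.09, adjusted p = 3.3e-07); all groups carried the human receptor knock-in, and the counts do not tell which allele the tags came from. The importer Slc11a2 fell by 0.86. The ferritin gene Fth1 did not pass the test (-0.08).

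Of 45 interferon-stimulated genes 15 rose and 2 fell (median 0.27), beside 14.8% rises and 17.8% falls over all genes. The other 28 did not pass the test, and the rises numbered 9 without batch 4. Ly6e was at 39.3, 39.5, 30.1 and 25.4 CPM in Rosa26 and 188, 142, 163 and 134 CPM in TKO (2.25 ± 0.26, adjusted p = 1.6e-04). Irf7, the transcription factor of the interferon feedback loop, was at 16.8, 16.4, 8.74 and 4.72 CPM and 34.8, 39.6, 30.5 and 21.96 CPM (1.53 ± 0.24, adjusted p = 4.8e-04). The Rosa26 libraries of batches 3 and 4 were lower than those of batches 1 and 2 for Irf7, but no TKO library overlapped with any of them. Oasl1 rose by 1.35, and Trim30a was one of those that fell, by 0.39. Class I antigen presentation had 5 rises and 1 fall in 17 genes. H2-Q7 was at 4.29, 5.48, 6.29 and 4.42 CPM and 22.1, 23.4, 23.1 and 20.7 CPM (2.12 ± 0.26, adjusted p = 9.8e-05), but it shares sequence with near-identical genes of its cluster, so its share of the tags is uncertain. H2-K1 rose by 0.43. In the class II and costimulation list Cd86 and Cd40 rose by 0.89 and 0.78, and Cd274, which encodes PD-L1, and H2-DMb1 fell by 1.30 and 0.89.

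Chemokines had 10 rises and 3 falls in 18 tested genes (median 0.84), beside 14.8% rises and 17.8% falls over all genes. Besides Ccl8, the platelet factor gene Pf4 rose by 1.31, Ccl5 by 1.94, the neutrophil chemokine Cxcl2 by 1.71 and Cxcl16 by 0.75. Ccl4, a chemokine that draws monocytes and T cells, was at 89.4, 113, 126 and 100.3 CPM in Rosa26 and 43.0, 52.8, 68.3 and 52.9 CPM in TKO (-0.99 ± 0.09, adjusted p = 2.9e-07), and Ccl3 fell by 0.68. The 4 TKO libraries of Ccl4 lay below all 4 Rosa26 libraries. Of the chemokine receptors 5 of 9 rose and 2 fell. These falls numbered 1 without batch 1, batch 2, batch 4, Rosa26 1, TKO 1, Rosa26 2, TKO 2, Rosa26 3 or TKO 4. They were also 1 at the floor of 5 CPM, with limma or with no batch term. Cx3cr1, the fractalkine receptor, was at 3.57, 3.04, 5.24 and 3.24 CPM and 25.9, 17.8, 17.4 and 11.8 CPM (2.28 ± 0.36, adjusted p = 0.00102), Ccr2 rose by 1.05 and Cxcr4 fell by 0.60. In the list of inflammatory cytokines and NF-kB feedback 6 of 19 rose and 1 fell. The inflammasome sensor Nlrp3 rose by 0.88, the suppressor Socs3, under 2 CPM, by 2.02, and the cytokine gene Il18 fell by 0.71. Toll-like receptor genes had 5 rises and 4 falls in 13. The rises numbered 2 without batch 4 and 3 without batch 1, batch 2, Rosa26 1, TKO 2, Rosa26 4 or TKO 4, with no filter, with limma, with no batch term or after thinning, and the falls 2 without batch 1, batch 4, TKO 1, Rosa26 2 or TKO 4. Tlr2 rose by 0.78 and Tlr6, its partner for diacylated lipopeptides, fell by 0.98.

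The lists of C-type lectins, complement and resident macrophage genes each had more rises than falls. Over all genes 14.8% rose and 17.8% fell in GrnKO, and 2.18% rose in WT. Of 14 C-type lectins 11 rose (median 0.66), and in WT 7 rose (median 0.52). Clec4e, the glycolipid receptor Mincle, was at 21.8, 16.7, 15.7 and 17.4 CPM and 77.2, 49.5, 52.6 and 56.9 CPM (1.72 ± 0.25, adjusted p = 5.8e-04), the mannose receptor Mrc1 rose by 0.65 and Mgl2 by 1.44. Clec7a, the beta-glucan receptor Dectin-1, fell by 0.94, and the other 2 did not pass the test. Complement genes had 9 rises and 2 falls in 18 (median 0.43), among them C3 with 1.43 and the membrane-bound regulator Cd55 with 1.50, and 6 rose in WT. The complement falls numbered 0 without batch 1, batch 2, batch 4, Rosa26 1, Rosa26 2 or TKO 4. They numbered 1 without batch 3, TKO 1, TKO 2, Rosa26 3 or TKO 3. This was also so under RLE scaling, at the floor of 5 CPM, with no batch term and after thinning. In the list of alternative activation and resident macrophage genes 11 of 14 rose and 2 fell (median 0.89), and 7 rose in WT. The growth factor gene Igf1 rose by 0.57, and the receptor ligand Gas6 fell by 0.55. Of 19 macrophage identity genes 7 rose and 2, Mpeg1 and Mertk, fell. These rises numbered 3 with no filter and 4 without batch 1, with limma or with no batch term. They numbered 11 in the fit of the 8 GrnKO libraries. Mpeg1, the perforin of macrophages, fell by 0.42. Adgre1, which encodes F4/80, was at 279, 292, 311 and 295 CPM and 552, 462, 442 and 488 CPM (0.71 ± 0.10, adjusted p = 3.0e-05). The monocyte markers had 3 rises, F13a1, Vcan and Ccr2, in 6 tested, and their summed level, nearly all of it S100a4, was 927 to 1083 CPM in Rosa26 and 963 to 1113 CPM in TKO. In bulk RNA, more cells of a type and more RNA per cell cannot be told apart.

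Genes of apoptotic cell uptake and scavenging had 6 falls and 6 rises in 21, beside 17.8% falls and 14.8% rises over all genes. With Mfge8, its integrin receptor chain Itgb3 fell by 1.38, the transglutaminase Tgm2 by 0.75 and the receptor kinase Mertk by 0.41, while Stab1 and Axl, a receptor kinase related to Mertk, were among the rises, with 1.04 for Axl. The rises numbered 3 without batch 1 or batch 2 or with limma. In the list of genes that microglia raise near disease lesions 7 of 19 fell and 4 rose. Gpnmb, Fabp5, Clec7a and Cd9 were among those that fell, and Igf1 and Axl among those that rose. In this list the rises numbered 2 without batch 3, batch 4, Rosa26 2, TKO 3, Rosa26 4 or TKO 4, with limma or with no batch term. They numbered 7 in the fit of the 8 GrnKO libraries. Trem2 and Lpl, central members chosen after their values were seen, did not pass the test: Trem2 was at 608, 578, 559 and 531 CPM in Rosa26 and 607, 594, 578 and 529 CPM in TKO (0.02 ± 0.06, adjusted p = 0.843), and Lpl had a change of 0.0039.

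The proliferation list had 12 falls and 1 rise in 30 (median -0.30, against -0.35 in WT). Over all genes 17.8% fell and 14.8% rose in GrnKO. The proliferation falls numbered 3 without batch 1, 4 without batch 4 or TKO 1 and 5 without TKO 4 or at the floor of 5 CPM. They numbered 6 without Rosa26 2 and 7 without batch 3, Rosa26 1 or TKO 3. Cdk1, the mitotic kinase, was at 60.8, 63.9, 62.9 and 50.1 CPM and 28.1, 39.6, 40.5 and 28.9 CPM (-0.80 ± 0.10, adjusted p = 1.6e-05), and Birc5 and Plk1 fell by 0.70 and 0.78. The replication helicase gene Mcm7 rose by 0.35. The cell cycle inhibitor Cdkn1c fell as well, as given above. Immediate early genes had 8 rises and 1 fall in 21, with Fos rising by 0.63 and Nr4a3 by 1.43. The cytosolic ribosomal protein genes had 54 rises and 1 fall in 86 (median 0.25). In WT none of them was called (median 0.01), and 27 differed between the genotypes, each higher in GrnKO. Of all genes 3.35% were called in WT and 13.4% differed between the genotypes. Rpl26 was at 572, 487, 489 and 442 CPM and 828, 759, 841 and 691 CPM (0.65 ± 0.08, adjusted p = 1.6e-05). Some members have near-identical copies, which counting may split. Summed over the list these genes held 61610.0 to 71600.0 CPM in Rosa26 and 69810.0 to 83900.0 CPM in TKO. The unfolded protein response list had 8 falls and no rise in 20, with Sdf2l1 falling by 0.81. These falls numbered 5 without batch 1, batch 2, batch 4, Rosa26 2, Rosa26 4 or TKO 4 or with no batch term.

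**Figure D4:**
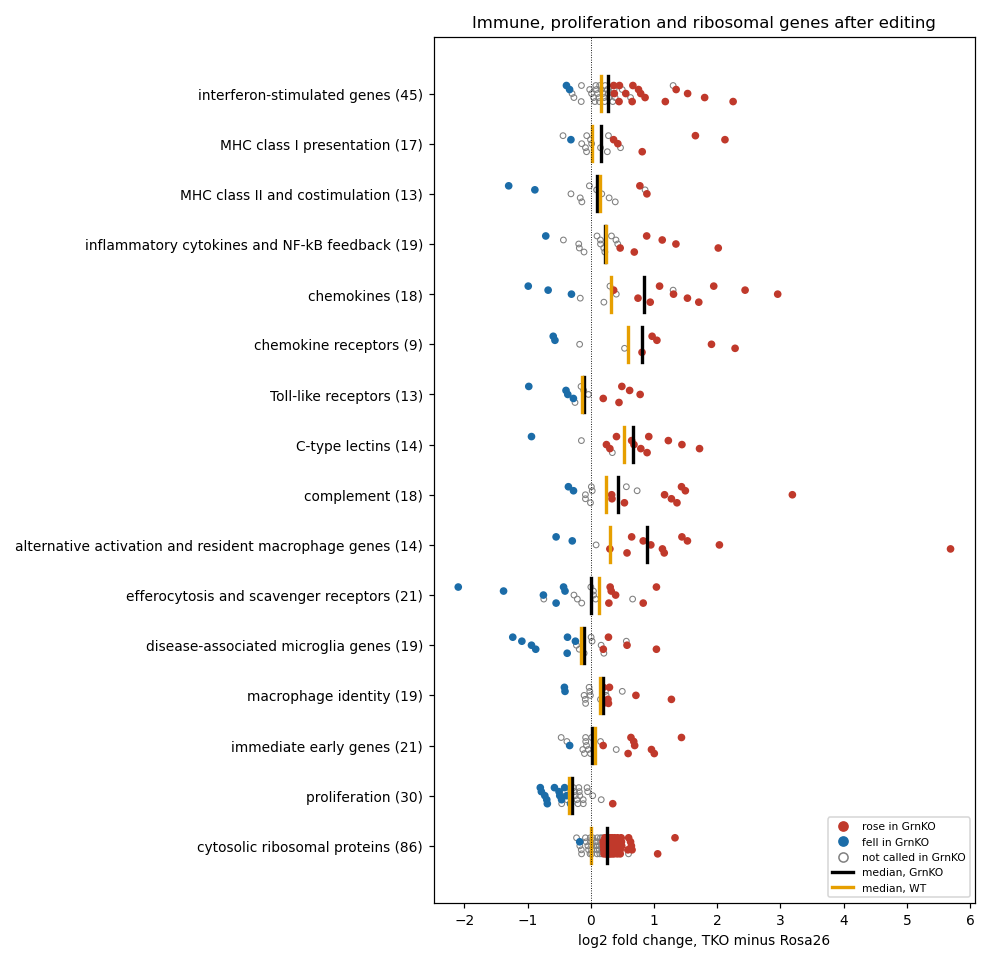
Log2 fold change (TKO minus Rosa26) in GrnKO of each tested gene of 16 lists, drawn as for the lysosomal and lipid lists. C-type lectins, chemokines and resident macrophage genes lie mostly above zero. The ribosomal protein genes range from -0.23 to 1.33 in GrnKO, with a median of 0.25 in GrnKO and 0.01 in WT.

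The marker lists of other cell types differed widely in their summed levels. The neutrophil list summed to 24.9 to 32.3 CPM in Rosa26 and 22.1 to 29.0 CPM in TKO, and 8 of its 11 genes were under 1 CPM in every GrnKO library. The progenitor list summed to 2.24 to 3.58 CPM in Rosa26 and 2.56 to 3.81 CPM in TKO, the stromal list to 1.24 to 2.13 CPM in Rosa26 and 2.21 to 3.63 CPM in TKO and the mast cell list to 0.315 to 0.531 CPM in Rosa26 and 0.594 to 0.894 CPM in TKO. The lymphocyte list summed to 323 to 427 CPM in Rosa26 and 239 to 316 CPM in TKO, nearly all of it from Il7r, which fell by 0.45, and its other 10 genes were under 1 CPM in every GrnKO library. The dendritic cell list summed to 158 to 204 CPM in Rosa26 and 221 to 249 CPM in TKO, most of it Bst2, which interferon also raises. The endothelial list summed to 49.0 to 56.5 CPM in Rosa26 and 30.5 to 36.0 CPM in TKO, and 2 of its 4 tested genes fell. One of them was Vwf, by 1.34, at 14.0 to 16.4 CPM in Rosa26 and 4.41 to 7.73 CPM in TKO. Most of the sum came from a gene other than Vwf. The part of other cells in the changes above was not tested.

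The same edit in WT cells gave 336 rises (2.18% of the genes tested) and 179 falls (1.16%), 3.35% in all. The WT Rosa26 libraries had count totals of 7069527 to 22469456, below those of GrnKO Rosa26. The WT TKO libraries had 16246705 to 21463730, and no WT library was thinned. The part of depth in the difference between these counts and those of GrnKO was not tested. Of the WT rises 182 were rises in GrnKO too, which is 54.2% of the WT rises and 8.01% of the GrnKO rises, and 27 fell in GrnKO. Of the WT falls 83 fell in GrnKO, which is 46.4% of the WT falls and 3.03% of the GrnKO falls. The 2 comparisons share no sample. The change itself differed between the genotypes in 2067 genes (13.4%), 893 with a higher and 1174 with a lower value in GrnKO. With limma on the authors' CPM these were 652 and 2019. The count was 511 without batch 1, 1175 without batch 2, 2838 without batch 3 and 283 without batch 4.

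F13a1 rose in WT as well (5.89 ± 0.29, adjusted p = 4.4e-08), from 0.923 ± 0.425 to 52.7 ± 10.8 CPM, and its interaction did not pass the test (-0.20 ± 0.54, adjusted p = 0.844). Dio2 fell in both, but from a WT Rosa26 level of 1.40 ± 0.370 CPM, and the interaction was -3.28 ± 0.36, adjusted p = 3.2e-05. Pamr1 stood at 83.2 ± 41.1 CPM in WT Rosa26 and 87.2 ± 19.3 CPM in WT TKO, where it was not called, with an interaction of 2.57 ± 0.25, adjusted p = 8.3e-05. The same form held for Eln, at 18.9 ± 5.05 and 24.2 ± 5.97 CPM in WT (1.94 ± 0.17, adjusted p = 2.6e-06). Folr2 fell in WT (-0.25 ± 0.07, adjusted p = 0.0387) and rose in GrnKO, and the interaction was 1.20 ± 0.09, adjusted p = 6.0e-07. Adamts1 had a WT change of 0.06 that did not pass the test and an interaction of -2.49 ± 0.29, adjusted p = 4.4e-05. For Cd28 these were -0.21, which did not pass, and -1.67 ± 0.19, adjusted p = 4.1e-05. Oprl1, the nociceptin receptor gene, was among the largest positive interactions, at 2.32 ± 0.41.

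**Figure D5:**
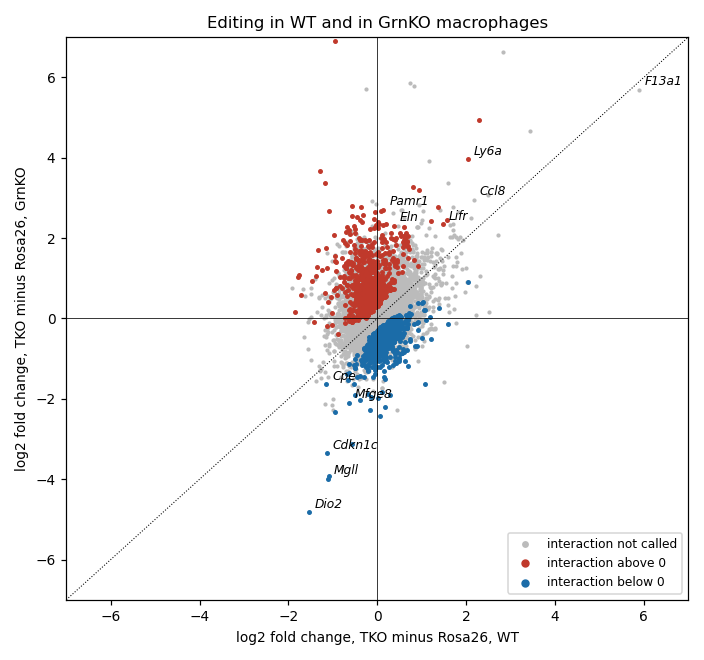
Log2 fold change (TKO minus Rosa26) of each gene tested in WT (horizontal axis) and in GrnKO (vertical axis), with the line of equal change dotted. Coloured genes passed the test of the difference between the genotypes. F13a1 lies near the line of equal change, and Pamr1 and Eln lie near zero in WT and above 2 in GrnKO.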

How the data were processed

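RNA of 16 samples was sequenced with a QuantSeq 3′ kit that adds unique molecular identifiers, per the labels' protocols. Per the submitters' processing notes the tools were R 4.5.1, edgeR 4.6.2, STAR 2.7.9a and Salmon 1.10.1, and the build was GRCm39, with no role stated for any tool. For molecular identifiers, annotation and filtering, no method was given in the sources used here. The authors' first deposited table holds estimated counts per gene, of which 11.0% of the non-zero values were not whole. Their second deposited table holds a normalised signal, the authors' CPM, with sums of 936181 to 1063514 per library. In both, all non-zero values had at most 2 significant digits, which changes a value by up to 5%.

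The estimated counts of 56980 genes were rounded to whole numbers, filterByExpr left 15385 genes, and a quasi-likelihood model with terms for group and batch was fitted over all 16 libraries in edgeR 4.0.16 (R 4.3.3) with TMM scaling. A gene was called at an adjusted p under 0.05 (Benjamini-Hochberg over all genes tested). The biological coefficient of variation was 12.0%, and the CPM values in the text were computed from the counts. The fit was also run on simulated data with known changes of 2-fold or more in well-expressed genes. Every gene had the same spread there and no batch effect was put in. That run thus does not measure errors for smaller changes or for differences between batches. The p-values measure the spread between samples of the 4 batches. Both genotypes shared the batch term, and only the fit of the 8 GrnKO libraries held a term for each Rosa26 and TKO pair. That fit called 7150 genes, against 5011 in the main fit. Alternatives were scaling by RLE, testing all genes with a count, a floor of 5 CPM on the mean, a fit in DESeq2 1.42.0, limma 3.58.1 on log2(authors' CPM + 1), only the 8 GrnKO libraries, no batch term, and leaving out each batch or GrnKO library. Batches pair the samples, per the series' design text: deviations from the group means of same-batch Rosa26 and TKO libraries correlated at 0.157 to 0.335 in GrnKO, with a mean of 0.276, against a mean of -0.0917 for different batches.

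The comparison and the 56 gene lists were chosen with earlier results of these data known. Named were the targeted genes and Grn, the 15 largest rises and falls at 5 CPM or more and the 10 at 200 CPM or more with 1 direction in all batches, up to 5 genes per list by smallest p, up to 8 interactions per direction and 6 promoters. Axl, Ccl3, Clec4e, Csf1r, Cxcl2, Ddx3y, Flcn, Fth1, Idi1, Lpl, Mcoln1, Nbr1, Rragd, S100a4, Sqle, Sqstm1, Srebf2, Tm7sf2, Trem2, Trim30a and Xist lie outside this rule and were chosen after their values were seen. Genes with 1 of the 145 repeated symbols were left out of the lists. Some genes that the rule names are not reported here.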

Additional observations from a re-analysis of the deposited data

Results flagged for a closer look

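In 19 of the 336 groups of 4 libraries looked at, 1 library stood apart by Dixon's test, and chance alone flags about 1 in 20 groups. The rounding of the deposited values to 2 significant digits makes some of these gaps larger or smaller than they were. The Y-linked Ddx3y was at 97.3 CPM in GrnKO Rosa26 replicate 4 and 122 CPM in GrnKO TKO replicate 4, against at most 0.210 CPM in the other 6 GrnKO libraries. Acaca was higher in GrnKO TKO replicate 3 (15.8 CPM) than in the other 3 libraries of its group (13.2 to 13.5 CPM). C1qa was higher in GrnKO Rosa26 replicate 2 (395 CPM) than in the other 3 libraries of its group (311 to 325 CPM). C3 was lower in GrnKO TKO replicate 3 (12.6 CPM) than in the other 3 libraries of its group (19.1 to 19.3 CPM). Ccr2 was higher in GrnKO Rosa26 replicate 3 (3.46 CPM) than in the other 3 libraries of its group (2.19 to 2.29 CPM). Cd28 was lower in GrnKO TKO replicate 1 (17.7 CPM) than in the other 3 libraries of its group (26.7 to 28.4 CPM). Ctsc was higher in GrnKO TKO replicate 1 (60.7 CPM) than in the other 3 libraries of its group (48.4 to 49.5 CPM). Ddit4 was lower in GrnKO Rosa26 replicate 3 (22.7 CPM) than in the other 3 libraries of its group (27.4 to 28.3 CPM). F13a1 was lower in GrnKO TKO replicate 3 (12.6 CPM) than in the other 3 libraries of its group (21.6 to 22.6 CPM). H2-DMb1 was higher in GrnKO TKO replicate 2 (33.0 CPM) than in the other 3 libraries of its group (23.7 to 24.7 CPM). Hexa was higher in GrnKO Rosa26 replicate 3 (1503 CPM) than in the other 3 libraries of its group (1415 to 1430.0 CPM). Itgam was lower in GrnKO Rosa26 replicate 1 (182 CPM) than in the other 3 libraries of its group (221 to 227 CPM). Mcoln1 was lower in GrnKO Rosa26 replicate 1 (28.2 CPM) than in the other 3 libraries of its group (42.6 to 45.4 CPM). Mcoln1 was higher in GrnKO TKO replicate 3 (57.8 CPM) than in the other 3 libraries of its group (39.6 to 42.5 CPM). Mcoln2 was lower in GrnKO TKO replicate 1 (28.1 CPM) than in the other 3 libraries of its group (32.6 to 33.3 CPM). Ndufb3 was lower in GrnKO TKO replicate 4 (118 CPM) than in the other 3 libraries of its group (138 to 142 CPM). Slc36a1 was higher in GrnKO Rosa26 replicate 4 (115 CPM) than in the other 3 libraries of its group (101 to 104 CPM). Srebf2 was lower in GrnKO Rosa26 replicate 1 (100.1 CPM) than in the other 3 libraries of its group (129 to 134 CPM).

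The change with editing differed between GrnKO and WT, by edgeR's interaction test at an adjusted p under 0.05, for 96 of the 168 genes named. Over all genes tested the share was 13.4%. Most named genes were chosen by their change or p in GrnKO or by their interaction. Their share thus says nothing on how common such differences are. Values are given as the log2 change in GrnKO minus that in WT. For proteins of the lysosome, its pump and autophagy the differences were Gabarapl1 (-1.03), Slc36a1 (-0.96), Mcoln2 (-0.89), Ulk1 (-0.89), Naglu (-0.85), Slc29a3 (-0.84), Galns (-0.83), Mfsd12 (-0.77), Rragd (-0.68), Atg101 (-0.57), Atp6v1b2 (-0.52), Hexa (-0.51), Gla (-0.48), Galc (-0.47), Atp6v0c (-0.39), Lamp1 (-0.37) and Atp6v1a (-0.33). For lipid, iron and respiratory genes the differences were Mgll (-2.89), Fabp4 (-1.37), Slc40a1 (-0.95), Slc11a2 (-0.91), Mvk (-0.76), Fabp5 (-0.74), Abcg1 (-0.73), Cyp51 (-0.70), Fads2 (-0.64), Ndufb3 (-0.60), Dgat1 (-0.54), Tfrc (-0.53), Acat2 (-0.46), Acaca (-0.43), Lpl (0.52) and Cp (0.88). Of the other genes, those with the larger negative differences were Dio2 (-3.28), Tspan7 (-2.82), Adamts1 (-2.49), Cdkn1c (-2.22), Lat (-2.10), Ctsk (-1.67), Cd28 (-1.67), Mfge8 (-1.46), Cd274 (-1.45), Bhlhe40 (-1.15), Cd4 (-1.12), Syngr1 (-0.97), Sdf2l1 (-0.92), Cxcr4 (-0.90) and Bhlhe41 (-0.89). Smaller negative differences were found for H2-DMb1 (-0.86), Ddit4 (-0.84), Mertk (-0.78), Tlr6 (-0.78), Vwf (-0.72), Il7r (-0.71), Itgb3 (-0.70), Gas6 (-0.69), Cd9 (-0.64), Tuba1b (-0.61), Tgm2 (-0.59), Gsr (-0.58), Il18 (-0.52), Atf5 (-0.51), Eif3d (-0.51) and Cpe (-0.48). Positive differences over that of Igf1 were found for Pamr1 (2.57), Oprl1 (2.32), Eln (1.94), Ly6a (1.93), Cx3cr1 (1.69), H2-Q7 (1.48), Ifi27l2a (1.40), Ccl5 (1.33), Tmem176b (1.21), Folr2 (1.20), Vcan (1.14), Lifr (0.87), Nlrp3 (0.84), Itgam (0.82), Cd55 (0.80) and Fos (0.75). The remaining positive differences were those of Igf1 (0.69), Adgre1 (0.64), C1qa (0.61), Rpl26 (0.60), Stab1 (0.59), Cdkn1a (0.55), Eif4a2 (0.54), Psat1 (0.51), Mitf (0.49), Mxi1 (0.46), Arntl (0.45), Txnrd1 (0.44), Hif1a (0.39), Pf4 (0.38), Cxcl16 (0.37) and Trem2 (0.27). These calls come from the fit of all 4 batches, and over all genes their count was 511, 1175, 2838 and 283 without batches 1 to 4.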

How the results depend on the processing

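The edit in GrnKO had 5011 called genes, and 3829 to 7150 under RLE scaling, both other filters, DESeq2, limma, the fit of the 8 GrnKO libraries, the fit with no replicate block (3959) and thinning to equal depth (4728, chosen after seeing the data). Leaving out a batch or a GrnKO library gave 2637 to 5096. The count moved more for the other results of the paired design: with no replicate block the edit in WT had 216 calls against 515, and the interaction 910 against 2067. DESeq2 called 808 genes in WT. Leaving out a batch gave 130 to 587 calls in WT and 283 to 2838 for the interaction, with the lowest values without batch 2 in WT and without batch 4 for the interaction. Of the 5011 called genes, 3214 were also called without batch 1 and 2614 without batch 4. The named genes were mostly chosen for a small p or a large change in these same data, which favours their keeping a call. None of the 150 called genes named changed direction in any setting run, and 136 of them kept their call in every setting. Of the other 14, the Mitf call was lost in 13 settings, those of Tfe3, Nfatc1 and Ppbp in 11, that of Adam9 in 10, that of Cd40 in 6, that of Psat1 in 5, that of Eif4a2 in 4 and that of Mcm7 in 3, and those of Trim30a, Atg9a, Mertk, Nbr1 and Plk1 in 1 or 2. Of the 72 list counts of 2 or more, 30 were lower by over 1.5 times without batch 4, 24 without batch 1 and 19 with no replicate block. Without a single GrnKO library 4 to 17 were lower, while the fit of the 8 GrnKO libraries raised 14. In that fit the rises were 11 for macrophage identity, 10 for inflammatory cytokines and 9 for p53 targets and class I presentation. They were 8 for matrix proteases, 7 for disease-associated microglia genes and 5 for other E-box factors, lipid uptake and iron. The falls were 12 for LXR targets, 6 for the tricarboxylic acid cycle, 5 for ATP synthase and 4 for interferon-stimulated genes and translation factors. The causes were not tested. Genes under 5 CPM and changes near the 5% rounding step are the least certain.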

Other observations

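Over all genes tested 14.8% rose and 17.8% fell in GrnKO, with a median of -0.0049, and the following lists are to be read beside these shares. Of 11 osteoclast genes 3 fell and 1 rose (median 0.11). Ctsk, the collagen-cutting cathepsin K, was at 2.54, 2.68, 4.19 and 3.24 CPM in Rosa26 and 0.883, 1.42, 1.05 and 1.02 CPM in TKO (-1.50 ± 0.22, adjusted p = 7.3e-05), and Nfatc1, the transcription factor of osteoclast formation, rose by 0.23. Matrix proteases and their inhibitors had 5 rises and 4 falls in 19 (median 0.14). The rises numbered 1 without batch 4, Rosa26 1 or TKO 4 or with no batch term and 2 without batch 1, TKO 1 or Rosa26 4 or with limma. They numbered 3 without TKO 3 or with no filter and 8 in the fit of the 8 GrnKO libraries. The falls numbered 1 at the floor of 5 CPM and 2 without batch 1, batch 2, TKO 1, Rosa26 2, TKO 2, TKO 3 or Rosa26 4. The membrane-bound metalloprotease gene Mmp14 rose by 1.12 and Adam9 by 0.85, and the inhibitor gene Timp2 fell by 0.45.

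In the antioxidant list 5 of 17 genes fell and 2 rose (median -0.07), and the falls were 3 without batch 4. The glutathione reductase gene Gsr fell by 0.71 and the superoxide dismutase gene Sod1 by 0.33, while Txnrd1, a thioredoxin reductase, rose by 0.48. The integrated stress response had 4 falls and no rise in 15 (median 0.02), among them the transcription factor Atf5 with a fall of 0.62 and the serine synthesis enzyme Psat1 with 0.38. These falls numbered 1 without batch 1 or Rosa26 2 or with no batch term and 2 without batch 2, batch 4, Rosa26 1 or TKO 1. Of 21 p53 targets 5 rose and 4 fell (median 0.12), and the rises were 3 without batch 2 or TKO 1 or with limma. The p53 target rises were 9 in the fit of the 8 GrnKO libraries. Cdkn1a, the cell cycle inhibitor p21, rose by 0.64, and the mTORC1 inhibitor Ddit4 and the cytokine gene Gdf15 fell by 0.55 and 0.51. Translation factors had 7 rises and 2 falls in 26 (median 0.05), and the rises were 2 without batch 1 or Rosa26 1 and 4 without batch 2, batch 4 or TKO 1, with no filter, with limma or with no batch term. Eif4a2, an RNA helicase of initiation, rose by 0.45, and Eif3d, a subunit of initiation factor eIF3, fell by 0.39. Of the 2 erythroid and megakaryocyte markers tested, Ppbp, a platelet chemokine gene, rose by 1.76. It was near the floor, at 0.0358, 0.152, 0.175 and 0.0885 CPM in Rosa26 and 0.552, 0.528, 0.210 and 0.285 CPM in TKO. The calls of Nfatc1, Ppbp and Adam9 were lost in 11 of 20, 11 of 18 and 10 of 20 alternative settings.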
